A study of Mus musculus with 3 samples.

Results

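Gfap, Vim and Nes encode glial fibrillary acidic protein, vimentin and nestin, the intermediate filament proteins of retinal glia. These 3 of the 18545 genes in the matrix were taken by name, and their transcripts were followed through the 21 cell clusters of the study, with the Müller glia (MG, cluster 0, 4770 of 15242 cells) set against the astrocytes (cluster 12, 141 cells). The data came from single-cell RNA sequencing of dissociated retinas from C57BL/6J mice aged 8 weeks, in which each transcript molecule was counted once by its unique molecular identifier (UMI). All mice, WT included, were reared in the dark, which slows the degeneration of the rd10 retina. There were 3 groups with 1 pooled library each. WT mice ate the base chow, rd10-vehicle mice carried the rd10 point mutation in the rod phosphodiesterase gene Pde6b and ate the same base chow, and rd10-TMB mice carried the same mutation and received tamsulosin, metoprolol and bromocriptine in the chow. The first pair of drugs are adrenergic receptor antagonists, given to people for the prostate and the heart, and the last is a dopamine receptor agonist. The rd10 pools were labelled female, whereas by the study's methods WT mice of both sexes were pooled. The labels put 4 mice into each pool and the methods give a smaller number for the rd10 groups. With a single library per group no test between groups was possible, so values carry 95% intervals that cover counting error only. The spread between mice cannot be told apart from the groups, nor can the sex mix in values over all WT cells. A further setting limited WT to 245 MG and 11 astrocytes marked as female by sex-linked transcripts. It moved 4 of the 27 ratios of Gfap, Vim and Nes past their intervals, none of them Gfap in MG. Ratios without WT could not move under this setting.

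Intermediate filaments are rope-like polymers of the cytoskeleton that give glial processes their mechanical strength. Vimentin is the filament protein that Müller glia make under all conditions. Glial fibrillary acidic protein is the standing filament of astrocytes and appears in Müller glia after injury or photoreceptor loss, where it is read as the classic sign of reactive gliosis. Nestin cannot form filaments on its own and joins vimentin in progenitors, in reactive glia and in growing vessels.

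By the RefSeq annotation of mm10 (GRCm38), Gfap lies at chr11:102887336-102897200 on the minus strand, Vim at chr2:13574311-13582826 and Nes at chr3:87971093-87980451, both on the plus strand. In the GENCODE annotation Gfap extends to 102900912, beyond its RefSeq start, and has 2 coding transcripts whose 3′ ends lie at 102887336 and 102890166. Their UMIs are summed in the matrix. In that annotation a long noncoding gene on the opposite strand, Gm26668, overlaps Gfap. No other gene overlaps the members. The promoter windows are shown because the 3 genes differ in which cells and libraries they were found in. Each runs from 250 bases before to 50 bases after the RefSeq start in the direction of transcription, and letters in capitals mark matches to the motifs searched. The windows cover chr11:102897151-102897450 for Gfap, chr2:13574061-13574360 for Vim and chr3:87970843-87971142 for Nes.
Gfap: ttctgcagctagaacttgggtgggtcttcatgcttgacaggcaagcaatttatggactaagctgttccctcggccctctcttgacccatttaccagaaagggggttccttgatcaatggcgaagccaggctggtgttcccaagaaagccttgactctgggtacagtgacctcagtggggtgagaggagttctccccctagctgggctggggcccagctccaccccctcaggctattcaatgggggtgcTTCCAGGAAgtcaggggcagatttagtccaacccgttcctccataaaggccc
Vim: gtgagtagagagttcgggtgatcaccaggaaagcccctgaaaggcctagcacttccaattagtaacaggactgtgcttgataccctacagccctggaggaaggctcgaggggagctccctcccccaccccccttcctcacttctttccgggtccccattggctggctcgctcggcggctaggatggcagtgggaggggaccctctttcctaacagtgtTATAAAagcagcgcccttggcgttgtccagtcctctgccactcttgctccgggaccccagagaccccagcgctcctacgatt
Nes: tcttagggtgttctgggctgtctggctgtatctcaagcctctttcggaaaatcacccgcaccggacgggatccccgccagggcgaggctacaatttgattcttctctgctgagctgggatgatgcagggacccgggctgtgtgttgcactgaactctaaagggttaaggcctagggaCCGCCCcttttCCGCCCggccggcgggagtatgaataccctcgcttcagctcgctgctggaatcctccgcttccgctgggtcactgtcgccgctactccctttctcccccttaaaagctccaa
The motifs searched on both strands were TTCNNNGAA for STAT factors, TGANTCA for AP-1, GGGCGG for the GC box and TATAAA, none of which overlapped another match. The Gfap window held 1 STAT match that began 2 bases before the start, and 8.30% of all 32851 windows of this length held such a match at any place. The Vim window held 1 TATAAA match 32 bases before the start, a motif found in 13.6% of windows. The Nes window held 2 GC box matches on the opposite strand, which 35.7% of windows had at least once. AP-1 matches were in 7.81% of windows and in none of these. The GC content was 55.7% for Gfap, 59.3% for Vim and 58.7% for Nes, beside a median of 52.7%.

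The cluster labels were checked against marker genes, with the 3 members left out. All 14 MG markers were enriched in cluster 0 and 9 of 14 astrocyte markers in cluster 12, so the 2 clusters are called MG-like and astrocyte-like. Pax2, a transcription factor that marks retinal astrocytes, had 0 UMIs in the MG-like cells of every library and 127 to 228 counts per 1000000 UMIs (CPM) in the astrocyte-like cells. WT, rd10-vehicle and rd10-TMB held 530, 2492 and 1748 MG-like cells, with median depths of 6300, 8594 and 9455 UMIs. Astrocyte-like cells numbered 20, 88 and 33, with median depths of 11606, 13682 and 15912 UMIs. The 13 astrocyte markers in the matrix summed to 1233 to 1269 CPM in the MG-like cells of the 3 libraries, of which Aldoc, a glycolytic enzyme, gave 687, 751 and 806 CPM. Of these markers Pax2, Gja1, Ntsr2 and Fgfr3 were at 0 in WT, and S100b stood at 9.94, 9.69 and 8.52 CPM. The 11 rod markers summed to 1078 CPM in WT MG-like cells and to 1568 and 1692 in those of rd10-vehicle and rd10-TMB. Cone markers summed there to 117, 277 and 318 CPM, lens markers to 1.51, 36.4 and 24.4 CPM and haemoglobin genes to 0.602, 248 and 1.01 CPM. In the astrocyte-like cells, the 14 MG markers summed to 29005, 33003 and 33163 CPM. The MG gene Rlbp1 was higher there in WT (778 CPM) than in rd10-vehicle (342) and rd10-TMB (261). The pericyte list summed to 1074, 1894 and 1686 CPM there, of which the single gene Rgs5 gave 1046, 1808 and 1635. Endothelial markers in the astrocyte-like cells summed to 86.4 CPM in WT against 208 in rd10-vehicle and 35.5 in rd10-TMB. Rod markers were there at 339, 160 and 781 CPM, with all 11 found in each library, and rod bipolar markers at 281, 261 and 469. Horizontal cell markers were at 114, 279 and 170 CPM there, amacrine markers at 383, 225 and 240 and ON cone bipolar markers at 71.0, 54.0 and 110. The remaining lists summed to at most 75.3 CPM in the astrocyte-like cells of any library. The part of these other transcripts in the results was not tested. In all, 25 cell barcodes occurred in 2 libraries and 0 in all 3, and without these 50 cells the 27 ratios of Gfap, Vim and Nes between libraries or clusters stayed within their intervals.

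In MG-like cells, Gfap was nearly absent from WT and clearly present in both rd10 libraries, at a lower level with TMB. The level was 16.3 CPM in WT (54 UMIs) beside 339 CPM in rd10-vehicle (7534 UMIs) and 223 CPM in rd10-TMB (3735 UMIs), and the 3 intervals did not overlap. Gfap was 20.5-fold higher in rd10-vehicle than in WT (95% interval 16.0 to 27.8), a log2 ratio of 4.36 that was 5.02 without the 5% of cells with the most UMIs, and 13.4-fold higher in rd10-TMB than in WT (10.5 to 18.3). Of all genes whose 2 sums together held 20 UMIs or more, 4.97% were at least 2-fold higher in rd10-vehicle than in WT and 4.06% in rd10-TMB than in WT, and in each comparison Gfap and Nes, as summed, were past that limit and Vim was not. Gfap had the 14th highest ratio of 13871 genes for rd10-vehicle over WT and the 12th highest of 13473 for rd10-TMB over WT, 2 comparisons that share the WT library. The log2 ratio of rd10-TMB over rd10-vehicle was -0.61 (-0.67 to -0.55), the 471st lowest of 14464 genes, beside a median of -0.02 over all genes. The study named Gfap on these same libraries, so its direction is not independent evidence. By immunoblot of homogenates of dark-reared retinas, the study found more GFAP protein in rd10 than in WT mice and no treatment effect. That is a protein measure of whole retinas rather than RNA of MG-like cells.

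Vim and Nes had the same order of libraries in MG-like cells over a smaller range. Vim was at 923 CPM in WT against 1202 in rd10-vehicle and 1083 in rd10-TMB. Its log2 ratios were 0.38 (0.33 to 0.44) for rd10-vehicle over WT, 0.23 (0.17 to 0.29) for rd10-TMB over WT and -0.15 (-0.18 to -0.12) between the rd10 libraries, TMB over vehicle. Each interval lay on one side of 0, and 15.0% of all genes had a ratio as high as that of Vim in rd10-vehicle over WT. Nes was at 8.74 CPM in WT (29 UMIs), 24.1 in rd10-vehicle (534 UMIs) and 18.3 in rd10-TMB (307 UMIs). Nes was thus 2.67-fold higher in rd10-vehicle (1.90 to 4.15) and 2.03-fold higher in rd10-TMB (1.43 to 3.18) than in WT. Its log2 ratio of rd10-TMB over rd10-vehicle was -0.39 (-0.60 to -0.19). With each cell thinned to 1000 UMIs this Nes ratio was -0.041, and those of rd10-vehicle and rd10-TMB over WT were 0.84 and 0.80, both under 2-fold and with intervals that included 0.

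**Figure D1:**
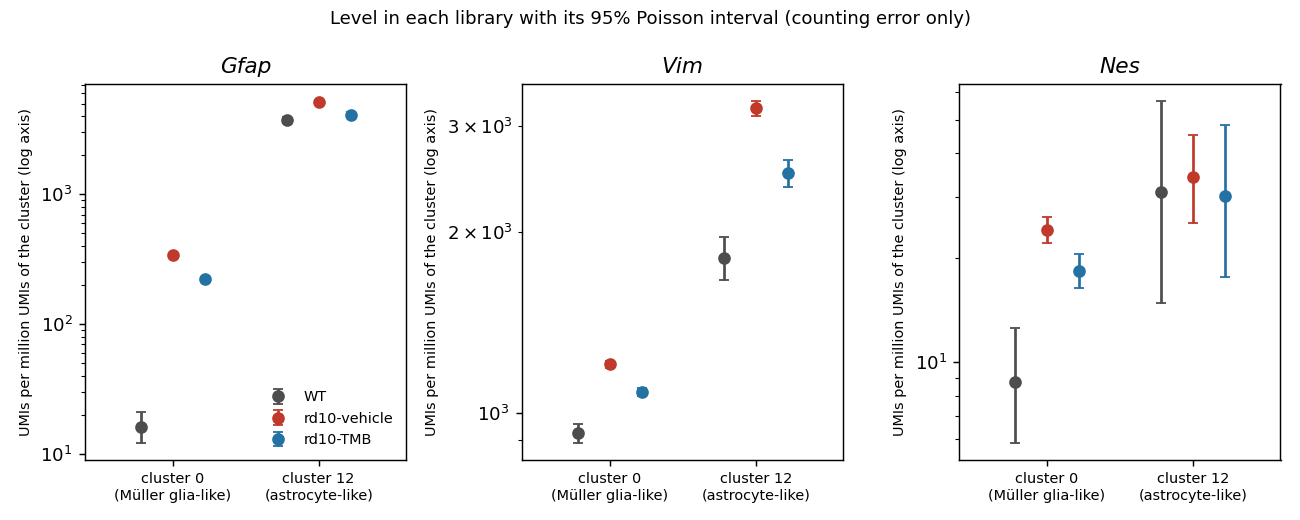
Level of Gfap, Vim and Nes in CPM of the cluster (log axes that differ between panels) in MG-like cells (cluster 0) and astrocyte-like cells (cluster 12) of the 3 libraries, with 95% Poisson intervals. Gfap in MG-like cells runs from 16.3 in WT to 339 in rd10-vehicle, while in astrocyte-like cells the 3 libraries lie between 3743 and 5149.

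In astrocyte-like cells, Gfap was high in every library and the libraries, as summed, lay closer together than in MG-like cells. It stood at 3743 CPM in WT beside 5149 in rd10-vehicle and 4115 in rd10-TMB. The log2 ratios were 0.46 (0.37 to 0.55) for rd10-vehicle over WT, 0.14 (0.04 to 0.24) for rd10-TMB over WT and -0.32 (-0.39 to -0.26) between the rd10 libraries, TMB over vehicle. In these cells the median gene had a log2 ratio of -0.17 for rd10-vehicle over WT and -0.16 for rd10-TMB over WT, and scaling by median-of-ratios size factors put Gfap at 0.58 and 0.31. A single WT cell with 72893 UMIs held 381 of the 1213 Gfap UMIs, and giving each cell the same weight moved the ratios over WT to 0.73 and 0.34. Over single astrocyte-like cells, Gfap in WT ran from 1432 CPM through a median of 2976 to 5996. The medians were 4915 CPM in rd10-vehicle and 3768 in rd10-TMB, and 1 cell in each rd10 library had no Gfap UMI.

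In the same astrocyte-like cells Vim was also higher in both rd10 libraries than in WT. It stood at 1805 CPM in WT against 3209 in rd10-vehicle and 2503 in rd10-TMB. Its log2 ratios were 0.83 (0.71 to 0.96), 0.47 (0.33 to 0.61) and -0.36 (-0.45 to -0.27) for rd10-vehicle over WT, rd10-TMB over WT and rd10-TMB over rd10-vehicle. The WT cell with 72893 UMIs held 147 of the 585 WT Vim UMIs. Keeping only astrocyte-like cells with no Rlbp1 UMI left 1, 11 and 5 cells, and Vim was then at 0.58 for rd10-vehicle over WT and -0.45 for rd10-TMB over WT, and Gfap at 0.90 and 0.37. Whether the Vim ratio differed between astrocyte-like and MG-like cells beyond differences between mice was not tested. Nes counts were small, with 10, 48 and 17 UMIs, and levels of 30.9, 34.1 and 30.2 CPM. No Nes difference between libraries was detectable at this depth in astrocyte-like cells, since the interval of rd10-vehicle over WT ran from -0.86 to 1.29 on the log2 scale. With the mean over cells that Nes ratio was 1.5 and that of Vim 1.03.

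**Figure D2:**
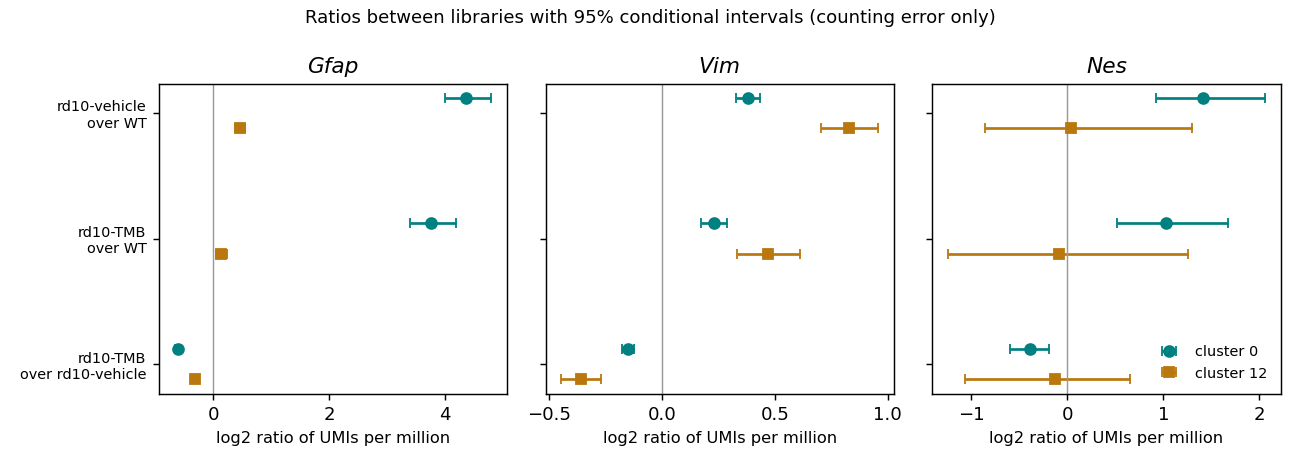
Log2 ratios between libraries of Gfap, Vim and Nes in cluster 0 (circles, MG-like) and cluster 12 (squares, astrocyte-like), with 95% conditional intervals for counting error and horizontal axes that differ between panels. For Gfap the ratios over WT are 4.36 and 3.75 in cluster 0 and 0.46 and 0.14 in cluster 12, and for Nes the cluster 12 intervals include 0.

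Set against each other within a library, where both clusters share preparation, the glial classes differed more in Gfap than in Vim or Nes. Gfap had the 30th highest ratio of astrocyte-like over MG-like cells of 10675 genes in WT, the 179th of 13810 in rd10-vehicle and the 120th of 13254 in rd10-TMB. These clusters were drawn from the same genes, so the values are a description. In WT, Gfap was 226-fold higher in astrocyte-like than in MG-like cells (175 to 308). The log2 ratio of 7.82 was 8.57 without the 5% of cells with the most UMIs and 7.23 with the 1 WT astrocyte-like cell free of Rlbp1. The distance was 15.2-fold in rd10-vehicle (14.7 to 15.7) and 18.5-fold in rd10-TMB (17.5 to 19.5). Vim was 1.96-fold higher in astrocyte-like cells in WT, 2.67-fold in rd10-vehicle and 2.31-fold in rd10-TMB, log2 ratios of 0.97, 1.42 and 1.21 that were 2.39, 2.59 and 1.72 with Rlbp1-free astrocyte-like cells. Nes was 3.76-fold higher in WT (1.54 to 7.46) and 1.44-fold in rd10-vehicle (1.03 to 1.91). For rd10-TMB the interval reached from 0.948 to 2.68. The WT value rested on 10 Nes UMIs in 4 of 20 cells, and 5 of these UMIs lay in the cell with 72893 UMIs. After thinning to 1000 UMIs, none of the 20 WT cells held a Nes UMI. The Nes values depended on the cells used: the log2 ratio in rd10-vehicle was 0.53 as summed, 1.25 with cells thinned to 1000 UMIs, 1.20 with the mean over cells and 1.91 with Rlbp1-free astrocyte-like cells, and in rd10-TMB 0.80, 1.97 when thinned and 3.01 when Rlbp1-free. The thinned astrocyte-like cells held 4 Nes UMIs in rd10-vehicle and 2 in rd10-TMB, and the Rlbp1-free ones numbered 11 and 5. The 1 UMI added to each sum raises ratios from so few UMIs. In WT the Nes log2 ratio was 1.91 as summed and 1.14 with the mean over cells. The 1 Rlbp1-free WT cell gave 3.94, a value raised by the 1 UMI added to each sum. No WT astrocyte-like cell exceeded 91.8 CPM of Nes, beside 8.74 CPM over WT MG-like cells. Past a 2-fold limit as summed were Gfap and Nes in WT, where 12.4% of all genes were, and Gfap and Vim in rd10-vehicle (9.43%) and rd10-TMB (12.1%). Gfap was also set against the Vim UMIs of the same cells. For every 100 Vim UMIs, MG-like cells held 1.76 Gfap UMIs in WT against 28.2 in rd10-vehicle and 20.6 in rd10-TMB, and astrocyte-like cells 207 (188 to 229), 160 (155 to 167) and 164 (154 to 176). With cells thinned to 1000 UMIs, an alternative added after the data were seen, the values were 0.862, 23.2 and 15.2 in MG-like cells and lay closer together in astrocyte-like cells, at 165, 153 and 156.

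The cells that held the Gfap transcripts of a retina differed between libraries. In WT, 95.2% of all 1274 Gfap UMIs lay in the 20 astrocyte-like cells, which were 0.447% of the cells, and 4.24% lay in MG-like cells. In rd10-vehicle, MG-like cells held 50.7% and astrocyte-like cells 48.7% of 14869 Gfap UMIs. In rd10-TMB the shares were 61.1% and 37.9% of 6115. MG-like cells made up 11.8%, 41.9% and 36.3% of the cells of the 3 libraries, and in these shares a loss of other cells and a different yield of dissociation cannot be told apart. MG-like cells held 56.1%, 75.2% and 83.5% of the Vim UMIs. In WT, endothelial-like cells (cluster 11) held 84.2% of the Nes UMIs and MG-like cells 8.48%. In the rd10 libraries the endothelial-like cells held 41.8% and 45.1% and MG-like cells 48.2% and 48.6%.

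Over all clusters with at least 20 cells, astrocyte-like and then MG-like cells had the highest Gfap level in every library, and neither interval overlapped that of the next cluster. Every other cluster was at or below 86.2 CPM, a value that rested on 1 of the 30 microglia-like cells of rd10-TMB. Vim was not specific to glia. In WT its order was astrocyte-like (1805 CPM), pericyte-like (1465), MG-like (923) and endothelial-like cells (704), of which the astrocyte-like and pericyte-like intervals overlapped. In rd10-TMB the endothelial-like cells (1160 CPM) stood above the MG-like cells (1083). Vim was also high in the few horizontal-like cells (cluster 19), interneurons of the outer retina, with 1824 CPM over 18 WT cells, 4565 over 4 rd10-vehicle cells and 3392 over 6 rd10-TMB cells. Gfap and Nes had 0 UMIs in all 28 of them. Nes was highest in endothelial-like cells (206, 257 and 227 CPM) and next in pericyte-like cells (166, 160 and 137 CPM), and the intervals of these 2 clusters overlapped in each library.

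**Figure D3:**
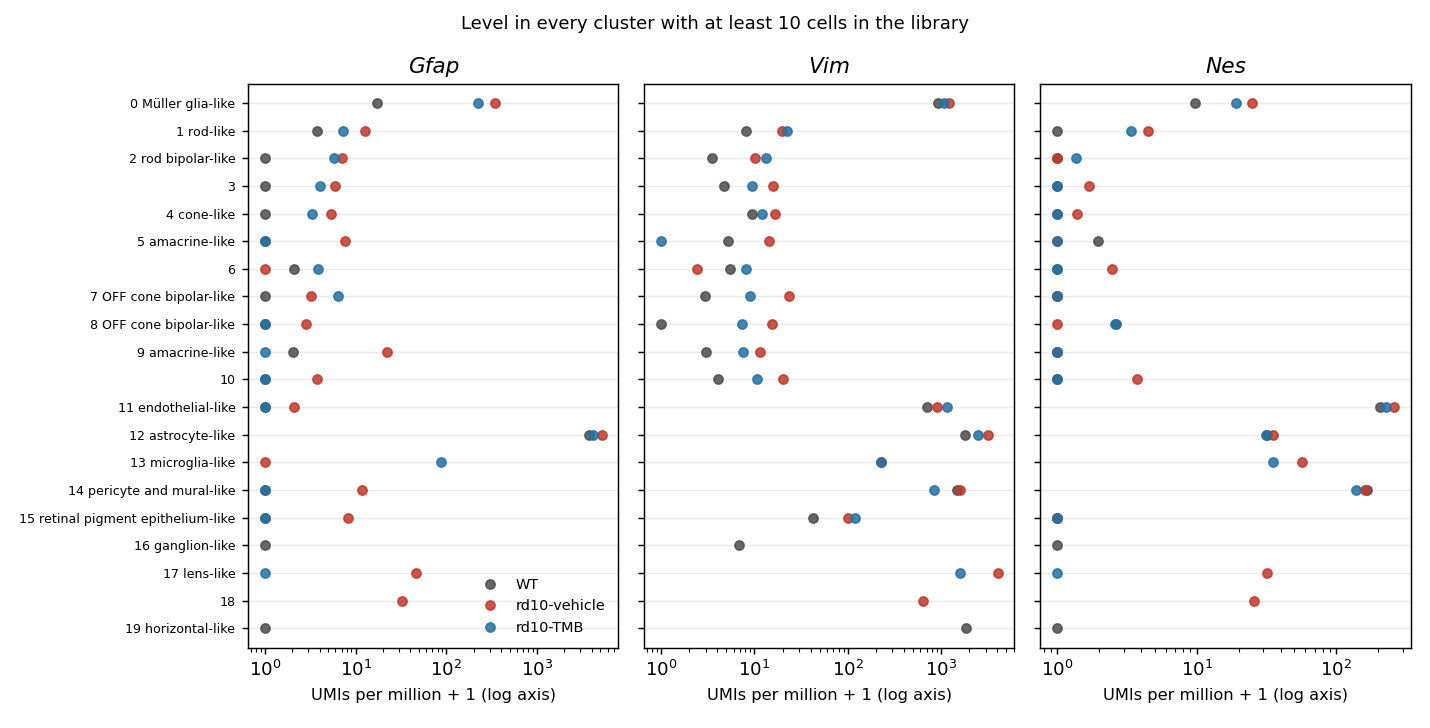
CPM plus 1 (log axis) of Gfap, Vim and Nes in each cluster with at least 10 cells in a library, 1 point per library and no error bars. Gfap stands apart in clusters 0 and 12, Vim is also high in vascular, lens-like and horizontal-like cells, and Nes is highest in endothelial-like and pericyte-like cells.

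Rods should lack Gfap and give the level of free RNA carried into droplets. After each cell was thinned to 1000 UMIs, 0.314% of WT rod-like cells, 1.64% of rd10-vehicle and 0.45% of rd10-TMB rod-like cells had a Gfap UMI. The median depth of rod-like cells before thinning was 1423, 1406 and 1536 UMIs. The shares of MG-like cells were 0.569% (0.118 to 1.65), 15.7% (14.3 to 17.2) and 9.21% (7.88 to 10.7), and without thinning 3.21%, 42.8% and 26.0%. In WT the thinned MG-like share could not be told apart from that of the rods, although the Gfap level was higher in MG-like (16.3 CPM) than in rod-like cells (2.78 CPM) with intervals that did not overlap. Of the astrocyte-like cells, 95%, 98.9% and 97.0% had a Gfap UMI after thinning. The thinned Vim share of MG-like cells was 54.3%, 62.6% and 61.0%, beside 0.524%, 2.25% and 2.55% of rod-like cells.

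Gfap was uneven among MG-like cells, whereas Vim was spread over nearly all of them, and both were highest in the deepest cells. In rd10-vehicle, 42.8% of MG-like cells had any Gfap UMI before thinning and the upper quartile began at 262 CPM, while the highest cell reached 7084 CPM. For Vim, the quartiles of single MG-like cells were 475, 826 and 1197 CPM in WT, 658, 992 and 1484 in rd10-vehicle and 616, 909 and 1300 in rd10-TMB, so each quartile was higher in both rd10 libraries than in WT. The depth bands that follow, and the split by Lcn2 after them, were chosen after the data were seen. Among MG-like cells with 5000 to under 10000 UMIs, Gfap stood at 8.24 CPM in WT beside 199 in rd10-vehicle and 78.1 in rd10-TMB. Among those with 10000 to under 20000 UMIs the levels were 79.8, 488 and 245 CPM. At matched depth the log2 ratio of rd10-TMB over rd10-vehicle was therefore -1.35 (-1.49 to -1.21) and -0.99 (-1.07 to -0.91), below the -0.61 over all cells. In cells under 5000 UMIs the levels were 194 CPM in rd10-vehicle and 121 in rd10-TMB, at a ratio of -0.68 (-1.11 to -0.28), beside 199 and 78.1 CPM in the band from 5000 to 10000. In the deepest cells, with at least 20000 UMIs, the 53 rd10-vehicle and 39 rd10-TMB cells were at 812 and 850 CPM, a log2 ratio of 0.07 (-0.05 to 0.18). Vim had log2 ratios of rd10-TMB over rd10-vehicle of -0.16, -0.16, -0.29 and 0.17 in these 4 bands in order of depth, and Nes of 0.63, -0.66, -0.50 and -0.12, of which the first, from 4 UMIs in each library, and the last had intervals that included 0. From the shallowest to the deepest band, Vim rose from 1013 to 1365 CPM in rd10-vehicle and from 909 to 1537 in rd10-TMB. In WT, without cells from 20000 UMIs on, Vim rose from 793 to 987 CPM. Shallow WT cells under 5000 UMIs had 0 Gfap UMIs in 174 cells, which allows up to 5.20 CPM.

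MG-like cells with Gfap also differed in other transcripts. In rd10-vehicle, thinned MG-like cells with a Gfap UMI had 1625 CPM of Vim (1500 to 1756) against 1063 (1019 to 1108) in those without. In rd10-TMB the Vim values were 1403 (1224 to 1599) and 966 (918 to 1016). Rlbp1, the retinaldehyde-binding protein of the visual cycle in Müller glia, went the other way, at 1715 against 2312 CPM in rd10-vehicle and 1799 against 2326 in rd10-TMB. The Nes values, 30.8 against 22.0 CPM in rd10-vehicle and 31.4 against 21.7 in rd10-TMB, had overlapping intervals. Lcn2, an iron-binding acute-phase protein of reactive glia, was found in 35.2% of Gfap-positive and 9.25% of Gfap-negative cells in rd10-vehicle, and in 23.3% and 5.10% in rd10-TMB.

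The rd10 libraries had nearly the same Gfap level in MG-like cells with Lcn2 and differed in those without. The study also named Lcn2 on these libraries. Cells with an Lcn2 UMI at their own depth made up 1.70% of MG-like cells in WT (9 cells), 26.2% in rd10-vehicle and 17.2% in rd10-TMB. Within them Gfap was at 328 CPM in WT against 697 in rd10-vehicle and 670 in rd10-TMB, and the log2 ratio of rd10-TMB over rd10-vehicle was -0.06 (-0.12 to 0.01). In cells with no Lcn2 UMI, Gfap was at 6.83 CPM in WT beside 159 in rd10-vehicle and 79.5 in rd10-TMB, a log2 ratio between the rd10 libraries of -0.99 (-1.10 to -0.89). The 9 WT cells with Lcn2 held 32 of the 54 WT Gfap UMIs. Vim followed the same pattern with smaller ratios between the rd10 libraries, -0.02 (-0.07 to 0.02) with Lcn2 and -0.15 (-0.19 to -0.12) without. Cells with Lcn2 were deeper, with medians of 10153 against 8175 UMIs in rd10-vehicle and 11722 against 9065 in rd10-TMB. In astrocyte-like cells Gfap was at 5049 CPM with Lcn2 against 5256 without in rd10-vehicle, and at 4555 against 3829 in rd10-TMB.

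**Figure D4:**
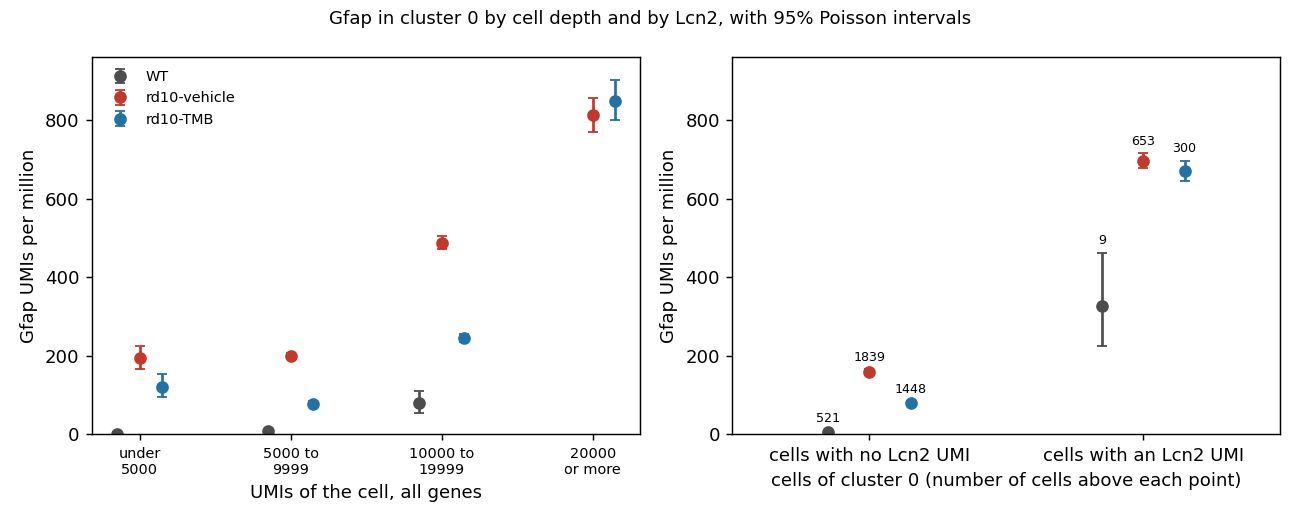
Gfap CPM in MG-like cells of the 3 libraries by the total UMIs of the cell (left) and by presence of an Lcn2 UMI (right, number of cells above each point), with 95% Poisson intervals. Gfap is higher in deeper bands in WT and, from 5000 UMIs on, in both rd10 libraries, the rd10-TMB points lie below rd10-vehicle in the first 3 depth bands, and in cells with Lcn2 the 2 rd10 points are 697 and 670.

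The wider filament network of MG-like cells was read from 3 lists. Of the other genes of the intermediate filament family, 13 were measured for rd10-vehicle over WT, of which 4 were at least 2-fold higher and 3 at least 2-fold lower, beside 4.97% of all genes higher and 4.90% lower. Their median log2 ratio was 0.13 against -0.07 over all genes. Krt18, a simple epithelial keratin, stood at 6.02 CPM in WT against 48.8 and 40.2 in rd10-vehicle and rd10-TMB, with log2 ratios over WT of 2.95 (2.38 to 3.73) and 2.67 (2.10 to 3.46). Without thinning, Krt18 UMIs were in 26.1% of rd10-vehicle MG-like cells and 3.21% of WT ones, whose median depths were 8594 and 6300 UMIs. Lmna, which encodes the A-type lamins of the nuclear envelope, stood at 23.8, 87.3 and 68.1 CPM in WT, rd10-vehicle and rd10-TMB, the order kept for the values that follow. Prph, a neuronal filament gene, had 0 UMIs in WT and 30 in rd10-vehicle, at least 1.5-fold higher, and with it at that limit 3 genes were 2-fold higher. The lowest ratios were those of Krt19 at -2.62, Ina at -2.46 and Nefl at -1.79, each from at most 28 UMIs in a library. Nefl was also among the 10 genes most enriched in ganglion-like cells (cluster 16), of which WT held 37 and each rd10 library 3. The part of free RNA from such cells was not tested. Synm, the partner of vimentin and desmin called synemin, had a log2 ratio of 0.51 (0.22 to 0.85). Between the rd10 libraries 0 of 13 were 2-fold higher with TMB and 1, Prph, was 2-fold lower, beside 0.512% of all genes higher and 0.961% lower, while Krt18 was at -0.28 (-0.42 to -0.14) and Lmna at -0.36 (-0.47 to -0.25). For rd10-TMB over WT, 2 of 11 family genes were at least 2-fold higher and 3 lower, beside 4.06% and 4.05% of all genes. In astrocyte-like cells only 2 family genes had enough UMIs for rd10-vehicle over WT.

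Among 20 genes whose products link, chaperone or modify filaments, 4 were at least 2-fold higher in rd10-vehicle than in WT and 0 lower, beside 4.97% and 4.90% of all genes, with a median of 0.16 against -0.07 over all genes. With TMB over vehicle, 0 of 20 were 2-fold higher and 1, Ppl, was 2-fold lower at -1.09, from 10 and 30 UMIs. Ppl, a plakin linker, had 0 UMIs in WT and 30 in rd10-vehicle, at least 1.5-fold higher, and with it at that limit 3 genes were past 2-fold. Hspb1, a small heat shock protein that binds filaments, stood at 36.4, 144 and 122 CPM, a log2 ratio over WT of 1.97 (1.72 to 2.26) in rd10-vehicle and 1.73 (1.48 to 2.02) in rd10-TMB. Eppk1, another plakin, had a log2 ratio of 1.75 (0.56 to 4.45) over 3 WT UMIs. Cryab, the small heat shock protein alpha B-crystallin, stood at 1154, 2217 and 2312 CPM, with a ratio of 0.06 (0.04 to 0.08) on the log2 scale for TMB over vehicle. The lowest were Dtna at -0.34, Cdk5 at -0.29 and Cdk5r1 at -0.25, none of them near 2-fold.

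The third list held 25 measured receptors, signalling genes and transcription factors of pathways that act on Gfap, and 3 of them were at least 2-fold higher in rd10-vehicle than in WT and 0 lower, beside 4.97% and 4.90% of all genes, with a median of 0.10 against -0.07. Socs3, the feedback inhibitor of cytokine receptor signalling and itself a STAT target, stood at 280, 1181 and 1176 CPM. Osmr, the oncostatin M receptor, stood at 28.3, 98.5 and 66.0 CPM. Stat3, the transcription factor downstream of that receptor family, stood at 47.9, 109 and 83.4 CPM. Osmr and Stat3 were lower with TMB than with vehicle and Socs3 was level, with log2 ratios of rd10-TMB over rd10-vehicle of -0.01 (-0.03 to 0.02) for Socs3, -0.58 (-0.68 to -0.47) for Osmr and -0.39 (-0.48 to -0.29) for Stat3. The AP-1 genes Junb, Fos, Jun and Jund were at 0.91, 0.65, 0.43 and 0.17 over WT in rd10-vehicle, and at -0.01, -0.05, -0.01 and 0.05 for TMB over vehicle. The lowest ratios were those of Hes5 at -0.52, a Notch target, Bmpr1b at -0.30, a bone morphogenetic protein receptor, and Cntfr at -0.26, the receptor of ciliary neurotrophic factor. Hes5 was the highest of the list for rd10-TMB over rd10-vehicle, at 0.31 (0.27 to 0.35).

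**Figure D5:**
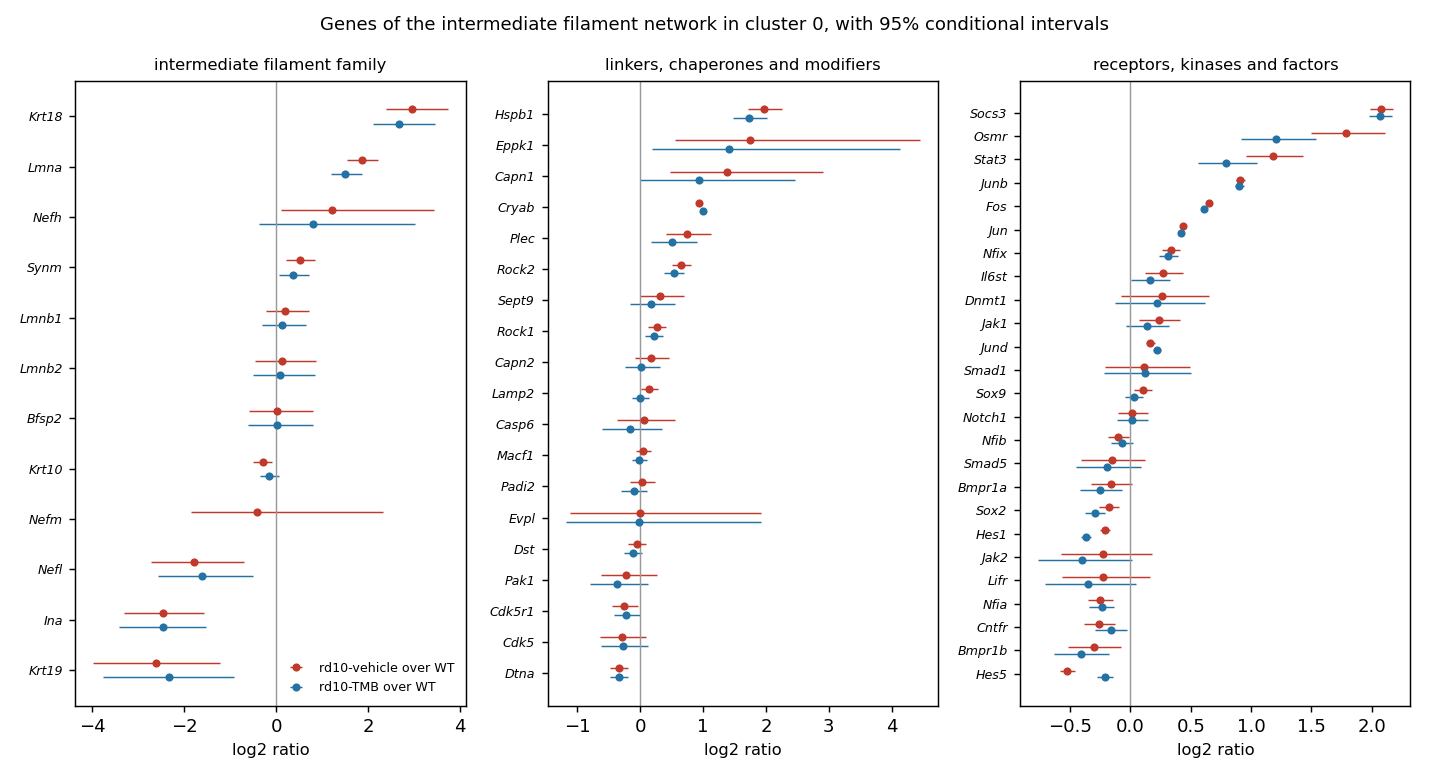
Log2 ratios over WT of the network genes in MG-like cells of rd10-vehicle (red) and rd10-TMB (blue), with 95% conditional intervals for counting error, for the 3 lists. Genes with 0 UMIs in a library are left out, both ratios of a gene share the WT library, and the red points of Krt18, Socs3, Hspb1, Lmna, Osmr and Stat3 lie at 2.95, 2.08, 1.97, 1.86, 1.78 and 1.18.

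Of the 11 list genes at least 2-fold higher in rd10-vehicle than in WT MG-like cells, 6 held enough UMIs to set astrocyte-like against MG-like cells in WT, a comparison made after the data were seen. In WT, 4 of these 6 were at least 2-fold higher in astrocyte-like cells, beside 12.4% of all genes: Hspb1 at 191 against 36.4 CPM, Stat3 at 182 against 47.9, Socs3 at 923 against 280 and Lmna at 55.5 against 23.8. The other 2 were not, with Osmr at 24.7 against 28.3 CPM and Krt18 at 0 against 20 UMIs. The ratio used to pick these genes and the ratio compared here both divide by the WT MG-like level. A low level there raises both, so the 12.4% of unselected genes is no fair yardstick for the 4 of 6. Prph and Ppl, with 0 UMIs in WT MG-like cells, count among the 11 but not among the 6. Plec, the plakin plectin, was at 201 against 21.7 CPM. Lower in astrocyte-like cells were, among others, Cryab at 636 against 1154 CPM, Hes5 at 21.6 against 700, Cntfr at 6.17 against 172 and Cdk5r1 at 9.26 against 71.7. In rd10-vehicle, Krt18 was at 4.26 CPM in astrocyte-like and 48.8 in MG-like cells, and Synm at 4.97 and 40.4. In that library the keratin and synemin transcripts thus lay with MG-like cells while Gfap and Vim were higher in astrocyte-like cells.

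Genes with the most similar pattern were ranked by Pearson correlation of log2(CPM + 10) over 47 points, each a cluster in a library with at least 20 cells, among 11383 genes. The points share libraries and differ in depth and cell number, so the values are descriptive. The 5 genes most like Gfap were Hsd17b2 (r = 0.97), Cmtm5, Igf2, Gpr37l1 and Lcat (0.91). Those most like Vim were Zcchc24 (0.97), Zfp36l1, Anxa5, Sparc and Id3 (0.96). Those most like Nes were Tagln2 (0.97), Klf2, Ets1, Itpripl2 and Ahnak (0.95). The members were less like each other, with r = 0.63 between Gfap and Vim, 0.84 between Vim and Nes and 0.23 between Gfap and Nes.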

How the data were processed

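Single-cell libraries (10x, 3′ ends) were made from papain-dissociated retinas, 1 pooled library for each of WT, rd10-vehicle and rd10-TMB. The authors aligned and counted reads with Cell Ranger 6.0.1 on mm10, kept cells with at least 500 genes in Seurat 3.2.2, removed doublets and clustered the cells after integration with Harmony. The deposited matrix held the natural log of 1 plus UMIs per 10000 UMIs of the cell, and the cluster of each cell was also deposited. Whole UMI counts were recovered from the deposited values, with 100% of 32620606 entries whole within 0.001. UMIs were then summed per cluster and library and given as counts per 1000000 UMIs (CPM) of that sum. Library totals were 18882951, 37002532 and 29192530 UMIs.

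Intervals are 95%: exact Poisson for levels, exact Clopper-Pearson for shares and exact conditional binomial for ratios. They cover counting error only. Log2 ratios had 1 UMI added to each sum, which raises ratios where one sum holds few UMIs. Genes with at least 20 UMIs over both sums were counted as higher or lower from 2-fold. A count of 0 was given the limit of 3 counts. Shares of cells with a UMI were compared after thinning cells to 1000 UMIs, and shares at the cells' own depth are named as such.

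The members and the lists were chosen with earlier results of these data known. The lists held 145 markers and 66 network genes, of which 63 network genes were in the matrix. The 3 highest and 3 lowest genes of a list were to be named. Synm, Cryab, Plec, the AP-1 genes and the genes compared between the clusters in WT and rd10-vehicle were named after their values were seen. The calculations used Python 3.11.15, numpy 2.4.6, pandas 2.3.3 and scipy 1.17.1, and figures matplotlib 3.10.9, and were tested on simulated data. Promoter windows came from RefSeq on GRCm38.p6, and transcripts and overlapping genes from GENCODE. Protein sequences were not used here.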

Additional observations from a re-analysis of the deposited data

How the results depend on the processing

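Each of the 27 log2 ratios of Gfap, Vim and Nes was recomputed under 11 settings, 297 values in all. Of 253 values of the 23 ratios beyond counting error, 252 kept their sign. Adding 0.1 UMI in place of 1, keeping cells with 1000 or more genes, and leaving out cells with shared barcodes, which was added after seeing the data, moved none past its interval. Values that moved are given with "in MG" and "in astrocytes" for ratios between libraries and "astrocytes over MG" for ratios within a library.

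With cells thinned to 1000 UMIs, Gfap in MG was 4.81 for rd10-vehicle over WT and -0.79 for rd10-TMB over rd10-vehicle, Gfap in astrocytes 0.82, 0.36 (rd10-TMB over WT) and -0.46, and Gfap astrocytes over MG 4.24 in rd10-vehicle and 4.57 in rd10-TMB. Vim was -0.19 in MG and -0.48 in astrocytes for rd10-TMB over rd10-vehicle, and 1.52 for astrocytes over MG in rd10-vehicle. Nes in MG was 0.84 for rd10-vehicle over WT and -0.041 for rd10-TMB over rd10-vehicle, Nes in astrocytes 0.68 for the latter, and Nes astrocytes over MG 1.25 in rd10-vehicle and 1.97 in rd10-TMB. The thinned Nes values of astrocytes rest on 4 UMIs in rd10-vehicle and 2 in rd10-TMB.

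Keeping only astrocytes with no Rlbp1 UMI left 1 WT, 11 rd10-vehicle and 5 rd10-TMB cells. Vim in astrocytes for rd10-TMB over WT then changed sign to -0.45, with 0.58 for rd10-vehicle over WT and -1.03 between the rd10 libraries. Gfap in astrocytes was 0.90, 0.37 and -0.53 for rd10-vehicle over WT, rd10-TMB over WT and rd10-TMB over rd10-vehicle, and Nes was 0.72 for the last. Astrocytes over MG in WT, rd10-vehicle and rd10-TMB were 7.23, 3.78 and 3.86 for Gfap, 2.39, 2.59 and 1.72 for Vim and 3.94, 1.91 and 3.01 for Nes. The Nes values rest on these few cells, and the 1 UMI added to each sum raised that of WT.

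Without the 5% of cells with the most UMIs, Gfap was 5.02 for rd10-vehicle over WT and -0.95 for rd10-TMB over rd10-vehicle in MG, 0.60 and -0.42 in astrocytes, and 8.57, 4.16 and 4.70 for astrocytes over MG. Vim in MG was 0.16 for rd10-TMB over WT and -0.19 between the rd10 libraries, and 1.5 for astrocytes over MG in rd10-vehicle. With the mean over cells, Gfap was -0.87 between the rd10 libraries in MG, 0.73 and 0.34 over WT in astrocytes, and 4.20 and 4.68 for astrocytes over MG in rd10-vehicle and rd10-TMB. Vim in astrocytes was 1.03 for rd10-vehicle over WT and -0.50 between the rd10 libraries, and 1.66 and 1.33 over MG. Nes in astrocytes was 1.5 for rd10-vehicle over WT and 1.20 over MG in rd10-vehicle.

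With size factors, Gfap in astrocytes was 0.58 and 0.31 over WT and 4.04 and 4.36 over MG in the rd10 libraries, and Vim 0.65 for rd10-TMB over WT and 1.53 and 1.36 over MG. With a mitochondrial share of at most 10%, Gfap in astrocytes was 0.33 for rd10-vehicle over WT and -0.23 between the rd10 libraries, and Vim -0.23 between them and 1.10 and 1.34 over MG in WT and rd10-TMB. Without mitochondrial and ribosomal protein genes in the totals, astrocytes over MG was 3.99 and 4.29 for Gfap and 1.49 and 1.29 for Vim in the rd10 libraries. With WT cells that held Xist and no Y-linked UMI, Gfap in astrocytes was 0.36 for rd10-vehicle over WT, Vim in MG 0.45 and 0.29 over WT, and Vim astrocytes over MG 1.14 in WT. The cause of these moves was not tested.

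The number of genes at least 2-fold higher in MG, 690 for rd10-vehicle over WT and 547 for rd10-TMB over WT, became 1356 and 1062 at 1.5-fold and 286 and 192 with at least 200 UMIs. For astrocytes over MG it went from 1326, 1302 and 1600 to 2546, 2348 and 2756 at 1.5-fold and to 180, 475 and 449 with at least 200 UMIs in WT, rd10-vehicle and rd10-TMB. By Spearman correlation 0, 0 and 1 of the 5 genes most like Gfap, Vim and Nes were among the first 5, and with libraries joined 3, 1 and 2. No paired analysis was possible because each group had 1 library, and for the same reason no library could be left out.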

Other observations

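In rd10-TMB microglia-like cells all 20 Gfap UMIs lay in 1 of 30 cells, and in the unnamed cluster 18 of rd10-vehicle all 10 lay in 1 of 23 cells, whereas its 8 UMIs in rd10-TMB lay in 2 of 6 cells. In lens-like cells of rd10-vehicle 9 of 18 cells held the 22 Gfap UMIs, and 0 of 19 lens-like cells of rd10-TMB had any. Nefh, a neurofilament gene, had 30 UMIs in astrocyte-like cells of rd10-TMB, from 3 of 33 cells with 17 in one of them, beside 3 UMIs in 88 rd10-vehicle cells and 0 in 20 WT cells. In WT MG-like cells, 1 cell held 11 of the 54 Gfap UMIs.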
